A study of Mus musculus with 19 samples.

Results

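The genes described here encode the enzymes that build cholesterol and fatty acids and the proteins that switch those enzymes on or carry the product away. Their members were taken from a list of 32 gene symbols. A symbol was measured where the array had a probe set annotated to that gene alone, and the probe set with the highest mean over all 19 arrays was used where a gene had more than 1. This gave 31 of the 32 genes, out of 19938 genes in the whole series; Acat2 was not analysed here. They fall into 4 arms: 6 genes of the mevalonate arm, 11 of the sterol arm, 4 regulators and transport genes, and 10 of the fatty acid arm.

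RNA came from mouse CD8 T lymphocytes purified, according to the labels, from cells of mice that carry the TCRP1A transgene, a T cell receptor against the P1A tumour antigen, on a Rag-1-/- B10.D2 background. Without Rag-1 these mice make no other T or B cells, and all 16 arrays of the first 5 groups share that genotype. The groups were naive peripheral cells (arrays 33, 34, 35 and 36), control cells activated for 72 h with their antigen (arrays 1, 2, 3 and 4), cells activated for 72 h that had received Stat5ca, a constitutively active Stat5, which is a transcription factor (arrays 9 and 10, with GFP+ in the label), control cells recovered after transfer into congenic hosts on day 18 (array 30) or day 120 (array 32), and Stat5ca cells recovered on day 20 (arrays 11, 12, 13 and 14). A sixth group had the genotype T-BetKO, which lacks the transcription factor T-bet, and also carried Stat5ca; it was recovered on day 14 (arrays 39 and 40) or day 54 (array 41). For that group the labels give the strain C57BL/6 beside a B10.D2 background, and the study's design text gives activation with anti-CD3/CD28 and Stat5ca introduced at 24 h. The labels give no transduction, vector or GFP for the control cells. Stat5ca therefore cannot be told apart from transduction and, at 72 h, from selection on GFP; for the T-BetKO cells, the genotype cannot be told apart from strain, stimulus or labelling protocol. No label says that arrays of a group came from separate mice, so the p-values speak of the spread among arrays, which may be technical. No age of the mice is given in the sources used here.

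Cholesterol synthesis starts from acetyl-CoA. The mevalonate arm makes the isoprenoid farnesyl diphosphate, which also feeds protein prenylation. Squalene synthase (Fdft1) commits farnesyl diphosphate to sterols, squalene epoxidase (Sqle) adds an oxygen to squalene, and lanosterol synthase (Lss) closes the rings. The later enzymes trim lanosterol to cholesterol. In the fatty acid arm, Acly and Acss2 supply acetyl-CoA, Acaca and Fasn build palmitate, Elovl6 lengthens it, Scd1 and Scd2 insert a double bond, and Fads1 and Fads2 desaturate polyunsaturated fatty acids. The transcription factors SREBP-1 and SREBP-2 (genes Srebf1 and Srebf2) control both arms; Insig1 holds them in the endoplasmic reticulum when sterols are plentiful and is itself one of their targets. In T cells, activation is known to engage SREBP, and dividing cells need new membrane lipid. Stat5 lies downstream of interleukin-2 and related cytokines.

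Promoter letters are shown first because these genes moved together in the comparisons that follow. RefSeq windows on GRCm38.p6, 250 bases before to 50 after a gene's start, were at hand for 24 of the 31 genes. The motif CCAAT, which the factor NF-Y binds beside sterol regulatory elements, lay on either strand in the window of 21 of these 24 genes (87.5%, exact 95% binomial interval 67.6 to 97.3). It lay in 41.1% of all 27025 genes with such windows and in 41.5% of the 10999 whose level was above background on these arrays. Counted by promoter, since a gene can have more than 1, it lay in 22 of the members' 30 and in 37.4% of all promoters of this length. GGGCGG, the GC box, was in 20 of 24 genes (83.3%), against 38.2% of all genes and 64.3% of those above background. By promoter it was in 22 of 30, against 35.7% of all promoters. CACGTG, the E-box, was in 4 of 24 genes (16.7%), against 8.09% of all genes and 11.2% of those above background. By promoter it was in 4 of 30, against 7.15% of all promoters. TCACCCCAC, the core of a sterol regulatory element, was in the window of 1 gene, Hmgcs1, against 0.614% of all genes. Its looser form TCACNCCAC, which every TCACCCCAC match also meets, was in the same gene alone, against 1.44% of all genes. By promoter each form was in 1 of 30, against 0.551% and 1.24% of all promoters. Both strands were searched for each motif, and a match or its absence describes letters only.

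The 200 bases before the start are printed 5′ to 3′ on the gene's strand for 5 members chosen after their values were seen: Hmgcs1, Mvk and Cyp51, which rose with activation and fell after transfer, Fasn, which differed between the Stat5ca and control cells after transfer, and Insig1, which did not pass the test for a fall after transfer. Capitals mark CCAAT on either strand (read as ATTGG on the other) and, in Hmgcs1, TCACCCCAC, whose first base lies 137 bases before the start. The stretches are chr13:119690151-119690350 (plus strand), chr5:114444069-114444268 (plus), chr5:4104698-4104897 (minus), chr11:120824548-120824747 (minus) and chr5:28071212-28071411 (plus). Mvk held 5 CCAAT matches, Fasn 3, of which a pair overlap, Hmgcs1 2 and Cyp51 1. The Insig1 stretch held none, and its E-box is in lower case; its own CCAAT match lay farther upstream, 216 bases before the start.
Hmgcs1: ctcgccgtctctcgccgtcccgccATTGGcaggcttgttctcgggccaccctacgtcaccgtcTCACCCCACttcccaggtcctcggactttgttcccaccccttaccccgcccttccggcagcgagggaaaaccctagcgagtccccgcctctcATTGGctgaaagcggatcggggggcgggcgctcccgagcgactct
Mvk: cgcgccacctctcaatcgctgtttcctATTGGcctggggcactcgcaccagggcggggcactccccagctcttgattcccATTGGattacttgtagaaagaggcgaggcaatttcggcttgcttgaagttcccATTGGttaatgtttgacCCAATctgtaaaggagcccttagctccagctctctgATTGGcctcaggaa
Cyp51: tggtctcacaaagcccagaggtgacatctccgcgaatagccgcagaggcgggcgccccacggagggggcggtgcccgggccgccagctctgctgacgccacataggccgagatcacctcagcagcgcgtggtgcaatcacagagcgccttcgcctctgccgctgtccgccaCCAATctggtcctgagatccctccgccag
Fasn: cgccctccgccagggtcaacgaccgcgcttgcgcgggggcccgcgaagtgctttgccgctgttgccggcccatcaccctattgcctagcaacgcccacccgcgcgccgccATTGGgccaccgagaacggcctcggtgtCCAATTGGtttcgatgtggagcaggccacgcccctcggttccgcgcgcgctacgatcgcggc
Insig1: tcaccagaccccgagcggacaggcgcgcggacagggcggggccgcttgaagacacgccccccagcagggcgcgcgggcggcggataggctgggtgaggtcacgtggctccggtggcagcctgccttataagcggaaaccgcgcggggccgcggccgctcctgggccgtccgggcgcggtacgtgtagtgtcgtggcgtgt

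Values below are the deposited log2 signals, on which a difference of 1 is a doubling. Levels of different genes are not compared, since probe sets differ in brightness. Signals at or under 7.30, the 95th percentile of 1190 olfactory and vomeronasal receptor genes, were treated as background; Me1 lay under it in every group mean and Scd1 in every group except the 72 h groups and the transferred control cells. Changes were tested with limma and called where the p adjusted by Benjamini-Hochberg over all 19938 genes was under 0.05. Errors of changes are standard errors. The 95% intervals of changes use these errors with a normal distribution. They are therefore narrower than limma's own t distribution would give, and an interval just short of 0 is not a test result.

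Several arrays stood apart and are named here because results rest on them. The 72 h control arrays split into 1 and 4 against 2 and 3, and arrays 2 and 3 had high Xist (12.92 and 12.84) and low Y-linked signal, while arrays 1 and 4 had low Xist (6.18 and 6.35) and high Y-linked signal. In 7 pairs of arrays of 1 group the differences between genes had an SD of 0.117 to 0.186, against 0.210 to 0.665 in the other 16 pairs, and the labels do not say whether such close arrays are separate samples. Macrophage and monocyte markers (18 of 18 measured) had a mean log2 signal of 8.37 to 12.21 in naive arrays, 8.88 to 9.61 in control and 7.40 to 7.47 in Stat5ca arrays at 72 h, 12.63 to 12.78 in transferred control, 10.20 to 11.002 in transferred Stat5ca and 11.08 to 12.65 in T-BetKO arrays; the highest naive arrays were 34 and 36. T cell markers (9 of 10 measured) had means of 12.29 to 12.72 in naive and 72 h arrays, 11.76 to 11.91 in transferred control, 12.45 to 12.50 in transferred Stat5ca and 11.92 to 12.45 in T-BetKO arrays. Erythroid markers (2 of 5 measured) had a mean of 10.84 in transferred control array 32, with Alas2 at 13.62, against 8.05 and 8.93 in array 30 and 7.77 to 9.50 for the mean in transferred Stat5ca arrays. Bulk RNA cannot tell fewer cells of a type from less RNA per cell. Stat5a was 11.54 to 12.12 in TCRP1A Stat5ca arrays against 10.03 to 10.62 without Stat5ca, and Tbx21, which encodes T-bet, was 8.18 to 8.34 in T-BetKO arrays against 11.77 to 11.97 in transferred Stat5ca arrays, both in the direction the labels give; whether the Tbx21 probe set reads the deleted part is not known here. Stat5a was 10.86 to 11.06 in the T-BetKO arrays. The RNA integrity number was 6 to 8 in the T-BetKO arrays and 8 to 10 in the others.

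With activation of control cells for 72 h, nearly the whole group rose. Of the 31 members, 28 rose and 1 fell, against 22.0% and 24.9% of all genes, and 29 changed either way, against 46.8%; the members' median change was 1.07, where the median of all genes was -0.09. All 6 mevalonate genes and all 11 sterol genes rose, as did 3 of the 4 regulators and transport genes and 8 of the 10 fatty acid genes. The arrays of the groups did not overlap for 28 members, against 36.2% of all genes. The exceptions were Acss2, which fell, and Srebf1 and Me1, which did not pass the test.

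**Figure D1:**
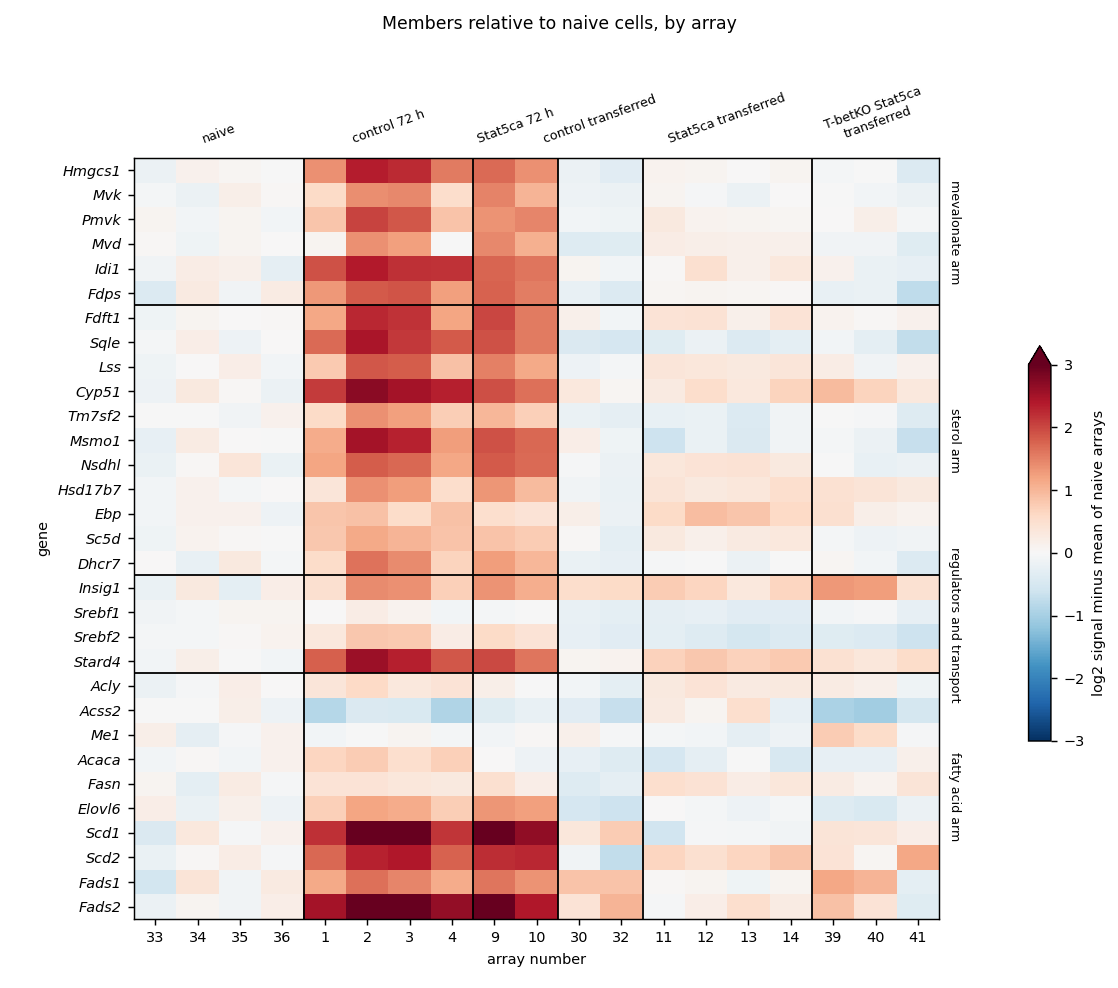
Log2 signal of each member (vertical axis, grouped by arm) in each of the 19 arrays (horizontal axis, grouped and numbered as in the labels) minus the mean of the 4 naive arrays; red is higher and blue lower, with colours saturating at 3. The 6 arrays taken at 72 h are red for nearly all members, and the transferred arrays are close to the naive ones.

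In the mevalonate arm, Hmgcs1, which makes HMG-CoA, had signals of 9.23, 9.53, 9.46 and 9.38 in naive arrays 33 to 36 and 10.78, 11.77, 11.64 and 10.96 in control arrays 1 to 4. Every activated array lay above every naive one, and arrays 2 and 3 were the highest. Its rise was 1.89 ± 0.17 (3.70-fold, adjusted p = 7.05e-07). Idi1, the isomerase that makes dimethylallyl diphosphate, stood at 8.63, 8.94, 8.88 and 8.47 in naive arrays and 10.63, 11.12, 10.93 and 10.91 in activated ones. No activated array came near the naive ones, and the change was 2.17 ± 0.13 (4.49-fold, adjusted p = 8.02e-09); a second probe set of Idi1 had group means of 8.70 and 10.89. The kinases Mvk and Pmvk rose by 0.99 and 1.39, and farnesyl diphosphate synthase (Fdps) by 1.56. The decarboxylase Mvd is the weak case. It had 9.24, 9.09, 9.28 and 9.22 in naive arrays, and 9.30, 10.57, 10.43 and 9.19 in arrays 1 to 4. Arrays 1 and 4 were level with naive cells, and only arrays 2 and 3 were high. Its change of 0.66 (adjusted p = 0.0365) lost its call in 9 settings besides the loss of single arrays, and was 0.04 (adjusted p = 0.768) without control arrays 2 and 3. It was not called without any 1 of control array 2 (0.43), control array 3 (0.48) and naive arrays 33 (0.68), 34 (0.63) and 36 (0.67).

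In the sterol arm, Cyp51, lanosterol demethylase, rose most. Its naive signals were 7.82, 8.26, 8.02 and 7.80, and those of the activated arrays 10.07, 10.69, 10.47 and 10.31. The groups were far apart, with a change of 2.41 ± 0.14 (5.31-fold, adjusted p = 8.02e-09). Squalene epoxidase, Sqle, a controlled step of the pathway, went from 8.55, 8.82, 8.47 and 8.63 to 10.32, 11.07, 10.74 and 10.46. This is a rise of 2.03 ± 0.14 (4.08-fold, adjusted p = 2.91e-08) with no overlap. The other 9 sterol genes rose by 0.79 (Ebp, a sterol isomerase) to 1.79 (Msmo1, a methylsterol monooxygenase). Among them, Fdft1 rose by 1.70, Nsdhl by 1.47, Lss by 1.34, Dhcr7, which makes cholesterol from 7-dehydrocholesterol, by 1.07, Tm7sf2 by 0.98, Sc5d by 0.95 and Hsd17b7 by 0.88.

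The regulators did not move alike. Srebf2 stood at 11.12, 11.12, 11.21 and 11.28 in naive arrays and 11.50, 11.98, 11.96 and 11.42 in activated ones. All activated arrays were higher, by 0.53 ± 0.12 on average (adjusted p = 0.00194). Srebf1 stood at 10.15, 10.21, 10.34 and 10.35 and then 10.27, 10.49, 10.37 and 10.17; the groups overlapped, and its difference of 0.06 ± 0.07 did not pass the test (adjusted p = 0.488, 95% interval -0.08 to 0.21). The probe set does not say which Srebf1 transcript it reads. Insig1 went from 10.14, 10.65, 10.05 and 10.55 to 10.84, 11.77, 11.71 and 11.07, a rise of 0.995 ± 0.19 (adjusted p = 0.000808) in which the lowest activated array was just above the highest naive one. Stard4, which carries cholesterol between membranes, stood at 8.16, 8.43, 8.22 and 8.16 in naive arrays and at 10.03, 10.81, 10.59 and 10.12 in activated ones. It rose by 2.14 ± 0.14 (4.41-fold, adjusted p = 2.75e-08), one of the larger changes of the group.

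**Figure D2:**
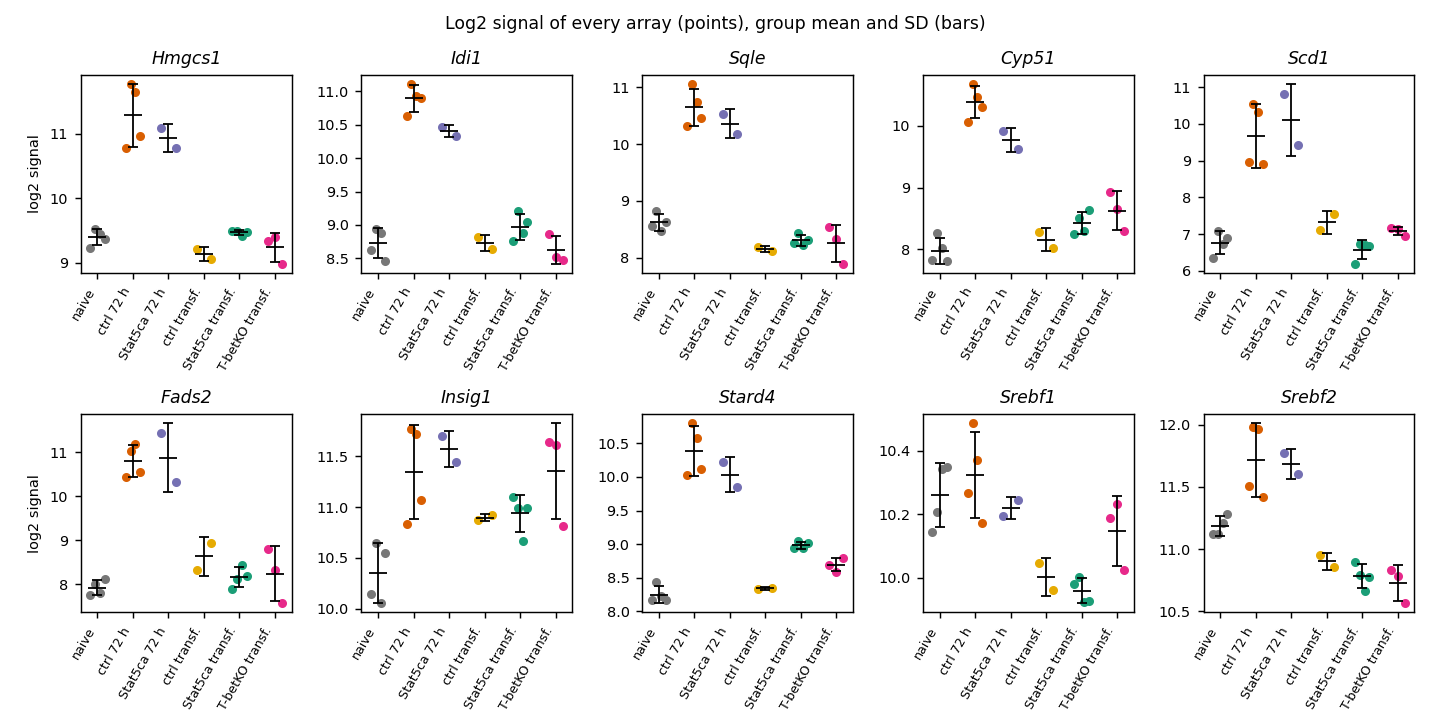
Log2 signal (vertical axes, which do not start at 0 and differ between panels) of 10 members in the 6 groups; points are arrays, and black bars are the group mean and SD. For Hmgcs1, Idi1, Sqle, Cyp51, Scd1, Fads2 and Stard4 all 72 h arrays lie above all others, whereas Srebf1 varies little.

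The desaturases led the fatty acid arm. Scd1 was under background in the naive arrays, at 6.34, 7.08, 6.73 and 6.90, and reached 8.95, 10.54, 10.32 and 8.90 in activated arrays. Arrays 2 and 3 were higher than arrays 1 and 4 by 1.503 on average. The change was 2.91 ± 0.36 (adjusted p = 1.46e-05), or 2.38 when counted from background. Fads2 rose from 7.76, 8.00, 7.81 and 8.12 to 10.42, 11.02, 11.18 and 10.56. Its groups were well separated, with a change of 2.87 ± 0.23 (7.33-fold, adjusted p = 1.34e-07). Scd2 rose by 2.05 ± 0.17, Fads1 by 1.34 and Elovl6 by 0.94. The enzymes that make palmitate moved less. Acaca rose by 0.66, Acly by 0.43 and Fasn by 0.36 ± 0.10 (adjusted p = 0.0114), and the call of Fasn was lost in 4 other settings besides the loss of single arrays, among them quantile normalization (0.20, adjusted p = 0.148). Acss2, which makes acetyl-CoA from acetate, was the member that went the other way, from 10.31, 10.33, 10.51 and 10.17 to 9.47, 9.90, 9.87 and 9.42. It fell by 0.67 ± 0.15 (adjusted p = 0.00271), and all activated arrays were below all naive ones.

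Pathway genes outside the members, chosen with earlier results of these data known, moved as follows with activation. Of 12 measured SREBP targets and machinery genes 5 rose, among them Tmem97, a sterol-responsive membrane protein (2.23 ± 0.14), Slc25a1, the mitochondrial citrate carrier (1.04 ± 0.16), and Insig2 (0.83 ± 0.09). Of 11 measured genes for sterol efflux, storage and oxysterols, 1 rose and 6 fell. Abca1 and Abcg1, the cholesterol exporters, fell by 2.57 ± 0.26 and 1.89 ± 0.09, and Mylip, which degrades the LDL receptor, by 1.98 ± 0.11. Cyp27a1, which makes an oxysterol and is strong in macrophages, fell by 1.73 ± 0.37. Macrophage markers were lower in the same comparison (7 of 18 fell, median -1.12); their part in these falls was not tested.

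At 72 h the same 2 pairs of control arrays differed across the group. Arrays 2 and 3 were both above arrays 1 and 4 for 27 of 31 members (87.1%), against 30.6% of all genes. The median of the difference was 0.61 over the members, with a range of -0.14 (Ebp) to 1.503 (Scd1), and 0.03 over all genes. By arm the medians were 0.85 for mevalonate, 0.65 for sterol, 0.57 for regulators and transport and 0.42 for fatty acid genes. The members' SD among the 4 control arrays, 0.35 in the median, was above the 0.13 of genes over background. The arrays also differed in Xist and Y-linked signal and in the macrophage marker mean (8.90 and 8.88 in arrays 2 and 3, 9.61 and 9.53 in arrays 1 and 4), and these cannot be told apart here. Of the pathway genes outside the members, some split and others did not. Elovl1 was 11.77, 11.73, 11.70 and 11.70 in arrays 1 to 4, and Scap 10.75, 10.57, 10.52 and 10.73. Abca1 was 8.91, 7.49, 7.63 and 8.77 in arrays 1 to 4, lower where the synthesis genes were higher. Lpin1, an SREBP target that makes diacylglycerol, was 9.51, 10.42, 10.26 and 9.58.

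**Figure D3:**
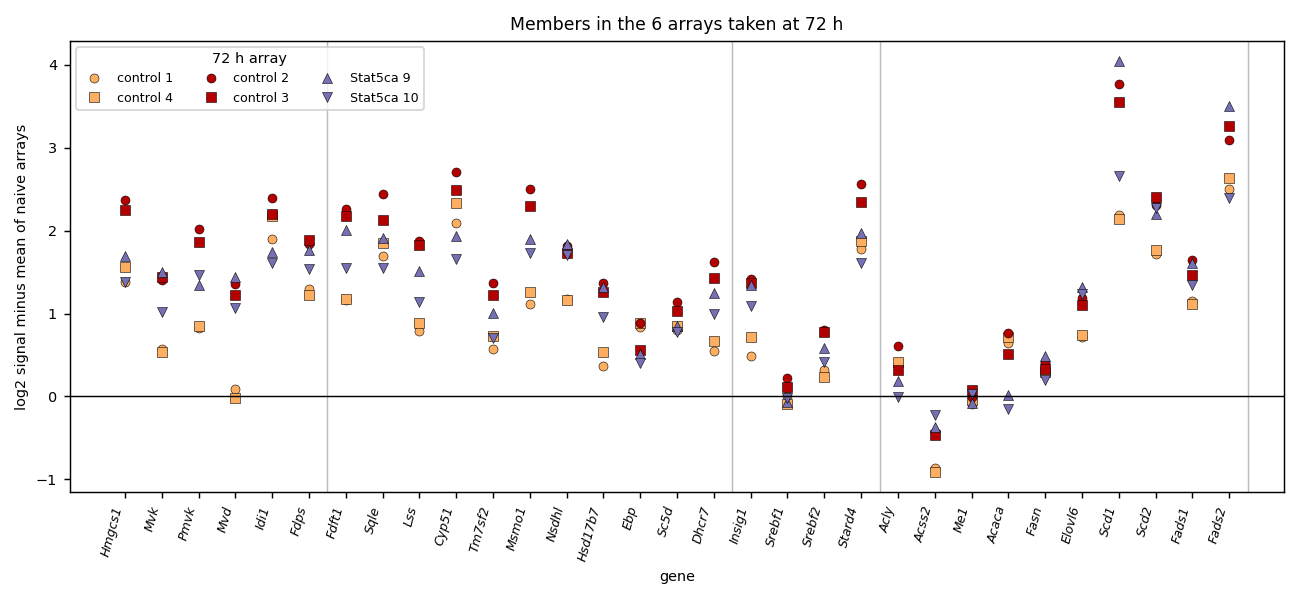
Log2 signal of each member minus the mean of the naive arrays in the 6 arrays taken at 72 h. Dark red control arrays 2 and 3 lie above light orange control arrays 1 and 4 for 27 of 31 members. The violet Stat5ca arrays lie below all 4 control arrays for Acaca, Idi1, Cyp51, Ebp and Acly, and above them for Acss2 and Elovl6. Vertical grey lines separate the arms.

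Before transfer, the Stat5ca cells at 72 h were compared with the control cells at 72 h, a difference that transduction and selection on GFP share. Of the 31 members, 0 rose and 1 fell with limma's test, against 2.37% and 3.35% of all genes and 5.72% either way; at an unadjusted p under 0.05, 1 was higher and 5 were lower. The median change was 0.01 over the members and 0.04 over all genes, and the arrays of the groups did not overlap for 7 members, against 32.9% of all genes. The member that fell was Acaca, acetyl-CoA carboxylase, which makes malonyl-CoA. It stood at 10.43, 10.55, 10.29 and 10.51 in control arrays 1 to 4 and at 9.80 and 9.63 in Stat5ca arrays 9 and 10. Both Stat5ca arrays were below all controls, and Acaca fell by 0.73 ± 0.13 (1.66-fold, adjusted p = 0.00433); its other probe set had group means of 9.39 and 8.73. The call was lost without Stat5ca array 10 (-0.64, adjusted p = 0.123), leaving 0 members called, and without control array 1 there were 2.

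The direction for many members depended on which control arrays were used. Against control arrays 2 and 3 alone, 29 of the 31 members were lower in Stat5ca cells, with a median of -0.27; 5 were called lower and 0 higher with limma (Hmgcs1, Pmvk, Cyp51, Stard4 and Acaca). Against control arrays 1 and 4 alone, 22 were higher, with a median of 0.39; 11 were called higher and 1, Acaca, lower. Pmvk was called in opposite directions, at -0.54 (adjusted p = 0.0275) and 0.57 (adjusted p = 0.00278). Mvd was at -0.04 and 1.22, and Scd1 at -0.31 and 1.19. Acaca was the one member called the same way by both, at -0.71 and -0.75. The 2 Stat5ca arrays differed as well. Array 9 was above array 10 for 26 members, by 0.25 in the median; Scd1 was 10.81 against 9.42, and Fads2 11.43 against 10.32. Array 9 had low Xist (5.97) and high Y-linked signal, as had the lower pair of control arrays, and array 10 had both Xist (12.52) and Y-linked signal (8.49).

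For the regulators, the Stat5ca arrays 9 and 10 had 11.77 and 11.60 for Srebf2, 10.20 and 10.25 for Srebf1 and 11.69 and 11.45 for Insig1, all within the range of the 4 controls. The changes were -0.03 ± 0.14, -0.10 ± 0.09 and 0.23 ± 0.24, and none passed the test. Hmgcs1 was 11.09 and 10.78 (-0.35 ± 0.21, adjusted p = 0.389), and Fasn 11.25 and 10.96 (-0.02 ± 0.13, adjusted p = 0.946); the 95% intervals were -0.77 to 0.06 and -0.28 to 0.23. Cyp51, at 9.91 and 9.63, lay below all controls without passing the test (-0.61 ± 0.17, adjusted p = 0.051). Of 12 SREBP targets and machinery genes 0 were called with limma (1 higher and 3 lower at an unadjusted p under 0.05), while Mylip and Npc2, a lysosomal cholesterol carrier, rose by 0.77 and 0.71 among 11 efflux and oxysterol genes. Both calls were lost without Stat5ca array 10 (0.67 and 0.66) and with close arrays averaged, and that of Npc2 also without array 9 (0.75) and with the compared groups alone.

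After transfer the control cells were back near the naive level. Of 31 members 0 rose and 27 fell from control cells at 72 h, with limma, against 13.1% and 24.4% of all genes and 37.5% either way; at an unadjusted p under 0.05, 0 were higher and 28 lower. The members' median was -1.28, and that of all genes -0.04. All 6 mevalonate and all 11 sterol genes fell, together with Srebf1, Srebf2, Stard4 and 7 of the 10 fatty acid genes; Insig1, Fads1, Acss2 and Me1 were not called. The arrays did not overlap for 28 members, against 52.1% of all genes. This comparison shares the 72 h control arrays with the activation comparison, so a member that was high in them moves in both. T cell markers were lower in the transferred cells (7 of 9 fell, median -0.66) and macrophage markers higher; their part in the members' falls was not tested. With the macrophage mean as a covariate 23 members fell, and Mvk (-0.93, adjusted p = 0.0631), Mvd (-0.71, adjusted p = 0.272), Dhcr7 (-0.90, adjusted p = 0.071), Srebf1 (-0.35, adjusted p = 0.105) and Fasn were not called. Srebf1 (-0.32) was not called with quantile normalization (-0.16), without array 32 (-0.28, adjusted p = 0.112) or without control arrays 2 and 3 (-0.22), nor was Mvd without array 30 (-1.04) or array 32 (-1.05). Both were also not called with the compared groups alone (adjusted p = 0.0504 and 0.0784) or with RNA integrity as a covariate (0.0992 and 0.125).

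Sqle, at 10.32 to 11.07 in the 72 h controls, was 8.19 on day 18 and 8.11 on day 120. Both recovered arrays were also below all naive ones, and Sqle fell by 2.50 ± 0.17 (5.65-fold, adjusted p = 6.82e-08). Idi1 was 8.81 and 8.64, a fall of 2.17 ± 0.16, and Hmgcs1 9.22 and 9.07, a fall of 2.14 ± 0.21 (adjusted p = 2.01e-06). Cyp51 at 8.29 and 8.02 fell by 2.23 ± 0.17, and Stard4 at 8.32 and 8.35 by 2.05 ± 0.18. All 5 lay far below the 72 h arrays on both days. In the fatty acid arm, Scd2 fell by 2.47 ± 0.20 and Fasn by 0.69 ± 0.13 (adjusted p = 0.000496), the latter without its call when the macrophage level was a covariate (-0.43, adjusted p = 0.0975).

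Fads1 and Insig1 did not pass the test for a fall. Both were higher in naive arrays 34 and 36, which had more macrophage signal, than in 33 and 35, by 0.66 and 0.50. Of the 31 members, 17 were higher in arrays 34 and 36 and 14 lower. Fdps, which fell after transfer, was higher by 0.51, and Acss2, also not called, was lower (-0.16). The part of macrophage signal was not tested. Fads1 was 10.37 and 10.37 in the transferred control arrays, against 10.66, 11.15, 10.97 and 10.62 at 72 h and 8.97, 9.90, 9.39 and 9.78 in naive arrays 33 to 36. The recovered arrays were thus between the naive and the 72 h ones. Fads1 did not pass the test against 72 h cells (-0.48 ± 0.21, adjusted p = 0.0864). Insig1 at 10.87 and 10.92 overlapped the 72 h arrays and was above all naive arrays (-0.45 ± 0.24 from 72 h, adjusted p = 0.168). Without control arrays 1 and 4 the fall of Insig1 was called (-0.84, adjusted p = 0.00365). Scd1, at 7.10 on day 18 and 7.53 on day 120, fell by 2.36 ± 0.45, and Fads2, at 8.32 and 8.94, by 2.16 ± 0.28; Scd1 was near background and Fads2 above all naive arrays.

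Set directly against naive cells, the transferred control cells differed in few members. Of 31, 1 rose and 1 fell, against 7.94% and 9.81% of all genes, with medians of -0.16 and -0.12. Fads1 rose by 0.86 ± 0.21 (adjusted p = 0.0127), and Elovl6, the elongase of palmitate, fell by 0.56 ± 0.14 (adjusted p = 0.0158). Both calls were lost with the macrophage and monocyte mean as a covariate, where the changes were 0.46 and -0.31, and without array 30 (0.86 and -0.63) or array 32 (0.86 and -0.49). Macrophage markers were higher in this comparison by 2.13 in the median, with 5 of 18 called, and T cell markers lower by 0.63, with 8 of 9 called; the part of either was not tested. Srebf2 (-0.28), Srebf1 (-0.26), Insig1 (0.55), Hmgcs1 (-0.26) and Fasn (-0.33) did not pass the test, with adjusted p from 0.0644 to 0.401. The arrays of the groups did not overlap for 14 members, against 42.3% of all genes.

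**Figure D4:**
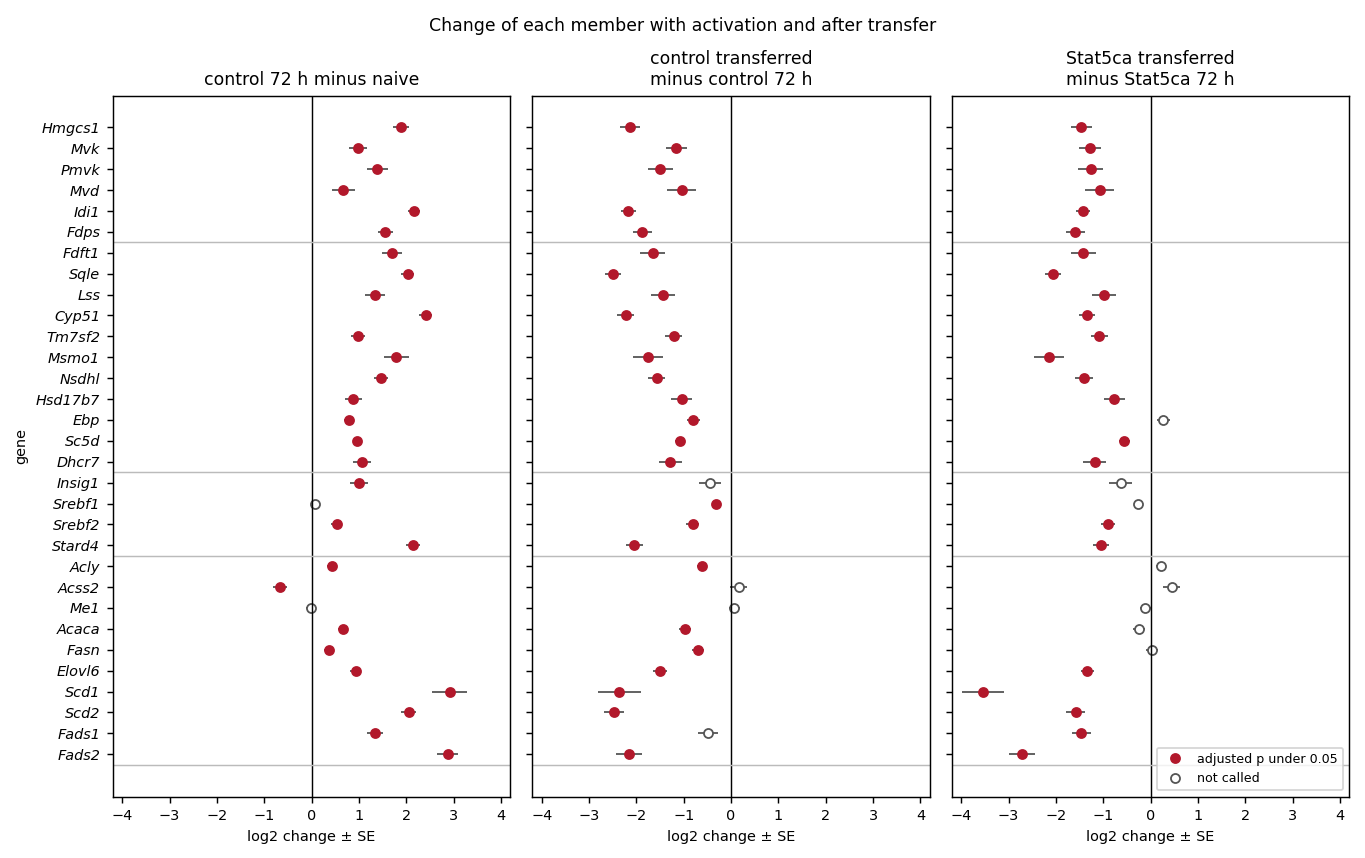
Log2 change and SE of each member in 3 comparisons; filled red points have an adjusted p under 0.05, open points do not, and grey lines separate the arms. Points lie to the right of 0 with activation (28 rose) and to the left after transfer of control cells (27 fell) and of Stat5ca cells (23 fell).

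The Stat5ca cells came down after transfer too, though not in every arm. From Stat5ca cells at 72 h, 0 of 31 members rose and 23 fell with limma, against 8.61% and 12.7% of all genes; at an unadjusted p under 0.05, 1 was higher and 25 lower. The medians were -1.18 for the members and -0.02 for all genes, and 27 members did not overlap, against 47.0% of all genes. All 6 mevalonate genes, 10 of 11 sterol genes, Srebf2 and Stard4 fell. Among the fatty acid genes, 5 of 10 fell: Scd1, Fads2, Scd2, Fads1 and Elovl6. No other fatty acid gene was lower at an unadjusted p under 0.05.

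Scd1 was under background in transferred Stat5ca arrays, at 6.18, 6.73, 6.71 and 6.66, against 10.81 and 9.42 at 72 h. It fell by 3.54 ± 0.45 (adjusted p = 5.08e-05), or by 2.82 counted to background. Fads2 at 7.89, 8.12, 8.44 and 8.18 fell by 2.72 ± 0.28 (adjusted p = 7.94e-06). Both desaturases overlapped the naive range. Msmo1 fell by 2.15 ± 0.31, Sqle by 2.05 ± 0.17, Hmgcs1 by 1.46 ± 0.21 and Srebf2 by 0.90 ± 0.14 (adjusted p = 0.000354). The synthesis enzymes of palmitate did not pass the test: Acly 0.22 ± 0.11, Fasn 0.04 ± 0.13 and Acaca -0.25 ± 0.13, with 95% intervals of 0.00 to 0.44, -0.22 to 0.29 and -0.50 to -0.00. Neither did Ebp (0.27 ± 0.14), Acss2 (0.44 ± 0.19), Insig1 (-0.63 ± 0.24, adjusted p = 0.0745) or Srebf1 (-0.26 ± 0.09, adjusted p = 0.0553). With the macrophage mean as a covariate, 18 members were called, and Mvd, Pmvk, Lss, Hsd17b7 and Dhcr7 were not. Without 72 h array 9, Mvd (-0.89), Lss (-0.80) and Hsd17b7 (-0.58) were not called, nor was Mvd without array 10 (-1.27).

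Compared with transferred control cells, transferred Stat5ca cells differed in a share of the members near that of all genes. Of 31 members 8 rose and 1 fell, against 16.9% and 8.46% of all genes, and 9 changed either way (29.0%), against 25.4%; the median was 0.27 for the members and 0.08 for all genes. The arrays did not overlap for 20 members, against 51.0% of all genes. The 8 were 5 fatty acid genes (Scd2, Fasn, Acss2, Elovl6 and Acly), the sterol genes Ebp and Sc5d, and Stard4. With limma 0 of the 6 mevalonate genes were called, also at an unadjusted p under 0.05, and all 6 changes were above 0 (0.14 to 0.56). The control group had 2 arrays, from day 18 and day 120, and the Stat5ca cells came from day 20. T cell markers rose in the same comparison (7 of 9, median 0.64). That median was above the rises of Elovl6, Acly and Sc5d, and close to those of Stard4, Acss2, Fasn and Ebp. Control array 32 had high erythroid signal, low Xist (6.45) and high Y-linked signal (9.57). Array 30 had both Xist (12.22) and Y-linked signal (8.96), as had Stat5ca array 13. Stat5ca arrays 11, 12 and 14 had high Xist and low Y-linked signal. The part of any of these was not tested.

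Fasn, the multienzyme that makes palmitate, was 10.37 on day 18 and 10.49 on day 120 in control cells and 11.26, 11.19, 10.99 and 11.11 in Stat5ca cells. All Stat5ca arrays were higher, by 0.70 ± 0.13 (1.63-fold, adjusted p = 0.00117). Scd2 had 10.87 and 10.23 against 11.62, 11.45, 11.62 and 11.81. The day 120 array was the lowest of the 6, and the rise was 1.08 ± 0.20 (2.11-fold, adjusted p = 0.00157). Ebp, which isomerises a sterol double bond, was 10.02 and 9.67 against 10.43, 10.79, 10.67 and 10.45, with no overlap and a rise of 0.74 ± 0.14 (adjusted p = 0.00125). Stard4 at 8.32 and 8.35 was below all Stat5ca arrays (8.94, 9.04, 8.94 and 9.02). Its rise of 0.65 ± 0.18 (adjusted p = 0.0142) was close to that of Acss2 (0.66 ± 0.19); Elovl6 and Acly rose by 0.50 each and Sc5d by 0.38.

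Fads1 went down: 10.37 and 10.37 in control cells and 9.55, 9.60, 9.38 and 9.60 in Stat5ca cells. It fell by 0.84 ± 0.21 (adjusted p = 0.00831) with no overlap, and by 0.49 with the macrophage mean as a covariate, where it was not called (adjusted p = 0.0818). Macrophage markers were lower in the Stat5ca cells by 1.99 in the median (4 of 18 fell). The other calls lost with that covariate were Acss2 (0.50) and Elovl6 (0.28). The 2 control arrays bore on several calls. Without array 32, 3 members were called, Scd2, Fasn and Ebp, while Stard4 (0.66), Acss2 (0.48), Elovl6 (0.43), Acly (0.39), Sc5d (0.21) and Fads1 (-0.84) were not; without array 30, 6 were called, and Stard4 (0.63), Elovl6 (0.57) and Fads1 (-0.84) were not. With quantile normalization Elovl6 was not called (0.42). With Y-linked signal as a covariate 7 members were called, 5 higher and 2 lower, and with close arrays averaged 6. Stard4, Elovl6 and Sc5d were called in neither setting. Their changes were 0.44, 0.36 and 0.30 with the Y-linked covariate and 0.63, 0.47 and 0.38 with close arrays averaged. Srebf1 at 9.98, 10.00, 9.92 and 9.93, Srebf2 at 10.90, 10.80, 10.66 and 10.78 and Insig1 at 11.10, 10.99, 10.67 and 10.99 did not pass the test against control cells, with changes of -0.04 ± 0.09, -0.12 ± 0.14 and 0.04 ± 0.24. Nor did Hmgcs1 (0.33 ± 0.21, adjusted p = 0.301).

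Stat5ca cells after transfer were also set against naive cells. Of 31 members 8 rose and 3 fell, against 15.8% and 12.7% of all genes, with medians of 0.15 and -0.05; 14 did not overlap, against 28.2% of all genes. Stard4 rose by 0.74 ± 0.14 (adjusted p = 0.00136), Ebp by 0.73 ± 0.11 (adjusted p = 0.000193), Scd2 by 0.65 ± 0.17, Insig1 by 0.59 ± 0.19 (adjusted p = 0.0346), Cyp51 by 0.45, Fasn by 0.37 ± 0.10 (adjusted p = 0.0144), Acly by 0.31 and Sc5d by 0.25. The genes that fell were Srebf2 (-0.40 ± 0.12, adjusted p = 0.0182), Acaca (-0.32) and Srebf1 (-0.30 ± 0.07, adjusted p = 0.00708). Both SREBP genes were below naive cells while several genes of the group were above, and Hmgcs1 did not pass the test (0.07 ± 0.17, adjusted p = 0.787). With the naive arrays 34 and 36 left out 6 members were called, and with close arrays averaged 2, Ebp and Stard4. Without naive arrays 33 and 35, the arrays with less macrophage signal, Insig1 was at 0.34 (adjusted p = 0.283). Scaling bore on the small changes: Sc5d, Insig1, Acly and Fasn were not called with quantile normalization, nor Srebf1 (-0.22), Srebf2 (-0.32) and Acaca (-0.24) with arrays centred on their medians. Stard4, Ebp, Scd2, Fasn and Srebf1 stayed called without any 1 array. The others lost their call in at least 1 case, at 0.38 to 0.42 for Cyp51 (without array 12, 14, 33 or 36), 0.49 to 0.57 for Insig1 (11, 12, 14, 33 or 35), 0.25 to 0.28 for Acly (12 or 33), -0.36 to -0.37 for Srebf2 (13 or 36), -0.34 to -0.26 for Acaca (11, 12, 14, 34 or 36) and 0.21 to 0.29 for Sc5d (every array but naive array 34).

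The Stat5ca minus control differences after transfer and at 72 h, which share no arrays, were then compared directly. The difference between them was above 0 and called for 9 members and below 0 and called for 1, against 12.3% and 5.48% of all genes; the medians were 0.23 and 0.01. Both are signed, Stat5ca minus control, so a value above 0 does not mean that Stat5ca and control cells were farther apart after transfer. The 9 were Ebp (1.07 ± 0.19, adjusted p = 0.00167), Stard4 (0.996 ± 0.25), Scd2 (0.89 ± 0.29), Cyp51 (0.88 ± 0.24), Acly (0.84 ± 0.16, adjusted p = 0.00234), Idi1 (0.74 ± 0.22), Fasn (0.73 ± 0.18, adjusted p = 0.0122), Acaca (0.73 ± 0.18) and Sc5d (0.53 ± 0.16). Ebp, for example, was 0.33 below control cells at 72 h and 0.74 above after transfer. Acaca was 0.73 below at 72 h, and its difference after transfer was 0.00 (95% interval -0.25 to 0.24). Cyp51 went from -0.61 to 0.27 and Idi1 from -0.49 to 0.25. Fads1 went from 0.14 to -0.84 (-0.98 ± 0.30, adjusted p = 0.0323). Srebf1 (0.06), Srebf2 (-0.09), Insig1 (-0.19) and Hmgcs1 (0.68) did not pass the test. The count was 16 without control arrays 1 and 4, all of them above 0. Without arrays 2 and 3 it was 9, with 5 above 0 and 4 below, and Idi1, Cyp51, Sc5d and Scd2 lost their call. Ebp and Acly alone among the 10 stayed called without any 1 array. Without Stat5ca array 10 at 72 h, 2 members were called, Ebp and Acly, with Stard4 at 0.81 and Fasn at 0.59. Without transferred control array 32, 4 were called, Ebp, Stard4, Acly and Fasn, with Cyp51 at 0.75 and Scd2 at 0.57, and without Stat5ca array 9, 6 were, with Idi1 at 0.81 and Fads1 at -0.85. Sc5d (0.41 and 0.53) was not called with quantile normalization or median centring, nor Scd2 (0.89) with the latter.

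**Figure D5:**
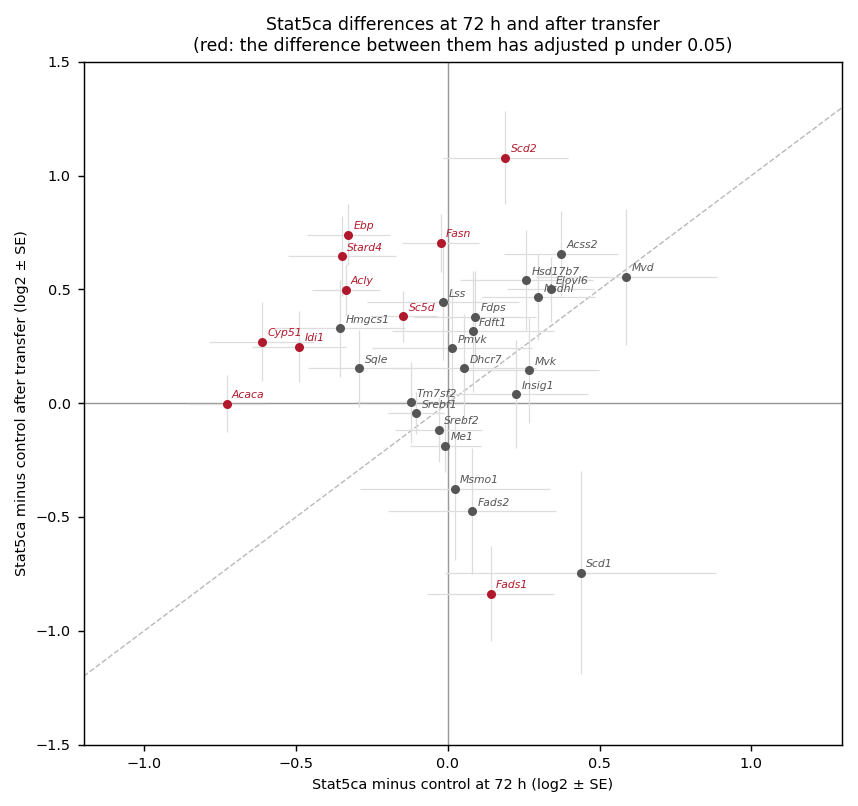
Log2 difference between Stat5ca and control cells for each member at 72 h (horizontal axis) and after transfer (vertical axis), with SE bars; the dashed line marks equal differences. The 10 genes in red differ between the 2 settings with an adjusted p under 0.05, and 9 of them, Ebp and Stard4 the farthest, lie above the line while Fads1 lies below it.

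Outside the members, Lpin1 rose in transferred Stat5ca cells by 1.23 ± 0.21 over control and 1.84 ± 0.17 over naive cells, among 3 and 6 of 12 SREBP targets and machinery genes that rose. Its signals were 11.45, 11.47, 11.68 and 11.43, above every array of the other groups. Tmem97 was 0.68 ± 0.17 over control and 0.99 ± 0.14 over naive cells; the call over control was lost without control array 30 (0.68) or array 32 (0.69), both with an adjusted p of 0.0657, and with close arrays averaged (0.62). Among 11 efflux and oxysterol genes, 1 rose and 5 fell against transferred control cells. Abca1 fell by 1.97 ± 0.32, at 9.02, 9.34, 9.02 and 8.96 against 11.05 and 11.07, and Abcg1 by 0.79 ± 0.11. Nr1h3, a sterol-sensing nuclear receptor, fell by 2.31 ± 0.47, and it was also high in naive arrays 34 and 36. In control cells after transfer, against 72 h, 6 of these 11 rose and 1 fell, with Abca1 up by 2.86 ± 0.32, Abcg1 by 2.06 ± 0.11 and Nr1h3 by 3.50 ± 0.47. In that comparison 15 of 18 macrophage markers rose, with a median of 3.10; their part in these rises was not tested.

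T-BetKO Stat5ca cells were compared with the TCRP1A Stat5ca cells after transfer. Of 31 members 1 was called higher and 4 fell, against 7.03% and 13.8% of all genes, with medians of -0.09 and -0.02; 15 did not overlap, against 30.4% of all genes. The member called higher, Me1, was under background in both group means. T cell markers were lower in the T-BetKO cells (4 of 9 fell and 1 rose, median -0.43); their part was not tested. Acss2 was 9.38 and 9.28 on day 14 and 9.80 on day 54, against 10.59, 10.42, 10.82 and 10.07. All T-BetKO arrays were lower, and Acss2 fell by 0.99 ± 0.17 (1.99-fold, adjusted p = 0.00118). Nsdhl (-0.50 ± 0.16), Ebp (-0.48 ± 0.13) and Sc5d (-0.36 ± 0.09), all enzymes of the sterol arm, fell as well. No size is given for Me1, malic enzyme, which makes NADPH, since its means were 7.20 and 6.64 and without dim genes it was not tested. It was 7.54 and 7.32 on day 14, just over background, and 6.74 on day 54, under it, as in all Stat5ca arrays (6.50 to 6.72).

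These 5 calls were all lost with RNA integrity as a covariate, without the day 14 arrays, and with close arrays averaged, the setting that joined arrays 39 and 40. Without array 40 alone, 1 member was called, Acss2, with Ebp at -0.43, Nsdhl at -0.46 and Sc5d at -0.34; without array 39, 3 were called. Me1 was not called in either case. Without array 41, 7 were called, and Insig1 (0.69) and Srebf1 (0.25) were among them, both higher in T-BetKO cells. Nsdhl was not called without any 1 of the 7 arrays (-0.56 to -0.46). The day 14 and day 54 arrays stood apart. Insig1 was 11.64 and 11.61 on day 14 and 10.81 on day 54, Fads1 was 10.67, 10.54 and 9.21, and Fads2 8.81, 8.33 and 7.57. In each the day 54 array was well below the day 14 ones. The day 14 arrays were the ones with RNA integrity 7 and 6, against 8. Macrophage marker means ran from 11.08 to 12.65 among the 3 arrays. Arrays 39 and 40 had both Xist (12.25 and 12.26) and Y-linked signal (8.26 and 7.94). Array 41 had low Xist (6.48) and high Y-linked signal (9.79). TCRP1A Stat5ca arrays 11, 12 and 14 had high Xist and low Y-linked signal, and array 13 had both. With Y-linked signal as a covariate 7 members were called, 4 higher and 3 lower. The part of these signals was not tested. Srebf1 at 10.19, 10.23 and 10.02 (0.19 ± 0.08, adjusted p = 0.114), Srebf2 at 10.83, 10.78 and 10.56 (-0.06 ± 0.13), Insig1 (0.42 ± 0.23), Hmgcs1 (-0.23 ± 0.19) and Fasn (-0.13 ± 0.11) did not pass the test. Outside the members, Abca1 was 10.85, 10.89 and 11.02, above all TCRP1A Stat5ca arrays and up by 1.83 ± 0.27, while Lpin1 fell by 0.78 ± 0.19, a call lost without array 39 (-0.69) or array 40 (-0.67), with RNA integrity as a covariate, without both day 14 arrays and with close arrays averaged.

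Ordered by group mean, 15 members were highest in Stat5ca cells at 72 h, 13 in control cells at 72 h and 2 (Fasn and Acss2) in transferred Stat5ca cells; the last, Me1, was under background in every group and is not ranked. In 23 of the 28 with a 72 h group on top, the other 72 h group came second, and none of these 23 differed between the 2 groups beyond the spread by the test. The other 5 were Ebp and Acly, where transferred Stat5ca cells came second, Srebf1 and Acaca, where naive cells did, and Insig1, where T-BetKO cells did. Fasn was highest in transferred Stat5ca cells with control cells at 72 h next, and the 2 means were 11.14 and 11.12. Averaged over all members, each array's distance from the naive mean was 0.92, 1.60, 1.49 and 0.98 in control arrays 1 to 4 and 1.36 and 1.10 in Stat5ca arrays 9 and 10. It was -0.03 and -0.13 in transferred control arrays, 0.10 to 0.18 in transferred Stat5ca arrays and 0.18, 0.06 and -0.10 in the T-BetKO arrays. The 6 arrays taken at 72 h stood well above all others, and the transferred groups lay within 0.18 of naive cells.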

How the data were processed

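RNA (0.125 µg per array) from 19 samples was measured on Affymetrix mouse gene arrays. The authors' deposited values, log2 signals of 35557 probe sets on each array, were not transformed further; per the submitters' processing notes the authors used Affymetrix Expression Console, and its version, summarization and normalization (not given in the sources used here) are unknown. Array medians lay between 7.69 and 7.89. Of the probe sets, 21789 carried 1 gene, 1621 several and 12147 none. Linear models were fitted to all 19938 genes with limma 3.58.1 in R 4.3.3 (lmFit, eBayes), over the 16 TCRP1A arrays in 1 fit, or all 19 arrays for the T-BetKO comparison, without covariates. The number of arrays limits the precision. On simulated data, 84% to 94% of genes changed by 1 in either direction and 42% to 60% of those raised by 0.5 were called in the 4 comparisons simulated. The simulated arrays were independent, without close pairs, and 50 genes at each size were changed out of 19938. Rates in the real data may therefore differ. Stat5ca against control cells at 72 h was not simulated, nor was the change in that difference after transfer.

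The members and gene lists were chosen with earlier results of these data known. Values of every array are given for the 2 members of each arm with the widest group means and for Insig1, Srebf1 and Srebf2; full statistics for up to 8 of the largest called changes per direction and for Srebf1, Srebf2, Insig1, Hmgcs1 and Fasn; other members named were chosen after their values were seen. Alternatives changed the normalization, scaling, filter, probe sets, arrays, weights, spread and covariates; 6 were added after the data were seen: 4 that leave out pairs of arrays, Y-linked signal as a covariate, and close arrays (SD of differences under 0.2) averaged. Promoters were read from RefSeq windows with Python 3.11.15.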

Additional observations from a re-analysis of the deposited data

Results flagged for a closer look

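Within groups of 4 arrays, 4 of 93 sets of member values held an array farther from the rest than Dixon's 95% limit (0.829). Chance gives this in about 1 of 20 groups of independent arrays. These groups held close arrays and the sets share arrays, so that rate may not apply. Fdft1 was 9.77 in transferred Stat5ca array 13, where the nearest other array had 10.03. Lss was 9.02 in the same array, against 9.08. Ebp was 10.41 in control array 3 at 72 h, against 10.69. Scd1 was 6.18, under background, in transferred Stat5ca array 11, against 6.66. Array 13 had both Xist (10.09) and Y-linked signal (9.64), where the other 3 transferred Stat5ca arrays had high Xist and low Y-linked signal; the part of this was not tested.

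The signed difference, Stat5ca minus control cells, changed from 72 h to after transfer, by the test of the difference itself, for 10 members. It moved upward, from 72 h to after transfer, for Ebp (1.07), Stard4 (0.996), Scd2 (0.89), Cyp51 (0.88), Acly (0.84), Idi1 (0.74), Fasn (0.73), Acaca (0.73) and Sc5d (0.53), and downward for Fads1 (-0.98). The upward moves include Acaca, from -0.73 to 0.00, and Cyp51 and Idi1, which went from -0.61 to 0.27 and from -0.49 to 0.25, so the size of the difference was not larger after transfer for these 3.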

How the results depend on the processing

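No paired analysis was possible because no array number is shared between groups. Of 31 members, 29 were called with activation (28 to 29 without single arrays), 27 in transferred control against 72 h control cells (25 to 28) and 23 in transferred against 72 h Stat5ca cells (20 to 24), and each of these counts stayed within 1.5 times under every alternative run. The others moved. For Stat5ca against control at 72 h (1 call), 2 members were called without dim genes, 10 with array weights, 2 with an intensity trend and robust spread, 5 without control arrays 1 and 4, 12 without arrays 2 and 3, 2 with Y-linked signal as a covariate and 0 with close arrays averaged (0 to 2 without single arrays). For transferred control against naive cells (2), the counts were 5 with quantile normalization, 0 with the compared groups alone, 4 with array weights, 0 with macrophage level added as a covariate, 4 when naive arrays 34 and 36 were left out and 0 when 33 and 35 were (0 to 3). For transferred Stat5ca against control cells (9), it was 16 with the compared groups alone (3 to 9). Against naive cells (11), it was 6 without naive arrays 34 and 36 and 2 with close arrays averaged (6 to 10). For the change in the Stat5ca minus control difference (10), it was 5 with RNA integrity as a covariate and 16 without control arrays 1 and 4. It was 6 with the Y-linked covariate and 4 with close arrays averaged (2 to 10). For T-BetKO cells (5), it was 8 with the compared groups alone, 10 with array weights, and 0 with RNA integrity as a covariate, without arrays 39 and 40 or with close arrays averaged (1 to 7). None of the named changes reversed with a call. These are the changes called in the fits described above, and those of Srebf1, Srebf2, Insig1, Hmgcs1 and Fasn. Other changes were not checked for this, and Pmvk at 72 h was called in opposite directions against the 2 pairs of control arrays. Of 222 named changes, 130 kept their side of the threshold in every alternative run; over 4444 values, 403 lost a call and 30 gained one. The motif shares kept within their intervals when only the last 200 bases before the start were searched. Causes were not tested.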
